A study of Mus musculus with 6 samples.

Results

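The 36 genes described here encode the contractile apparatus and the stress fibres of the cell apart from actin itself. They were chosen by name, with earlier results of these data known, from a list of transgelins, calponins, tropomyosins, myosin chains, crosslinkers, adhesion proteins and the transcription factor SRF, and all 36 were among the 55401 genes of the deposited table. They lie on 17 chromosomes, and positions below are of GRCm38 from GENCODE M21. RNA was sequenced from NIH-3T3 cells, an established mouse embryonic fibroblast line, labelled with the genotype WT, and from its mutated derivative NIH-3T3-MU, labelled with the genotype Mutation. There were 3 libraries of each, numbered 1 to 3, of poly(A) RNA prepared with a stranded kit, and all cells were grown in DMEM with 10% fetal bovine serum with no other treatment named. The labels used here name neither the mutated gene nor the allele, and leave unsaid if MU is 1 clone and if replicates were separate cultures. The p-values therefore measure the spread between these libraries, which may be technical.

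Stress fibres are bundles of actin filaments that carry nonmuscle myosin II and are crosslinked by alpha-actinin, filamin and palladin. Tropomyosin, caldesmon, calponin and transgelin bind along the filaments, and vinculin, talin and zyxin tie the bundles to the focal adhesions through which a fibroblast grips its matrix. Many of these genes are targets of SRF, which binds a DNA element called the CArG box together with the cofactors MRTF-A and MRTF-B or myocardin. When actin monomer is used up by filament assembly, MRTF enters the nucleus and SRF targets are transcribed. Fibroblasts that become myofibroblasts switch on smooth muscle forms such as transgelin and alpha smooth muscle actin.

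The sequence just upstream of the annotated start was compared between members, because a CArG box there is the element through which SRF binds. RefSeq promoter windows (GRCm38.p6, 250 bases before to 50 after each start) were given for 34 of the 36 genes, but not for Tagln and Myh11. The search was for CC, 6 bases that are each A or T, and GG, a palindromic pattern that reads the same on both strands. It was present in the windows of 5 of 34 members (14.7%), Cnn2, Myl6, Myl9, Srf and Vcl. Over all genes with a window it was present in 488 of 27025 (1.81%). In Myl6 an exon of the gene in GENCODE M21 covers all 250 bases before the start, so its box is counted but not shown. Allowing 1 mismatch at the outer C or G positions, 11 of 34 members (32.4%) and 4279 genes (15.8%) had a match, the added members being Cald1, Flna, Lmod1, Palld, Tpm1 and Tpm3. The following stretches are shown because they belong to 4 genes that rose in MU (Myl9, Vcl, Tpm1, Palld), to Lmod1, to 1 gene that fell (Tpm3) and to 2 genes with an exact CArG box that did not pass the test (Cnn2, Srf). Each runs 5′ to 3′ on the gene's own strand, without bases that an exon of the gene covers in GENCODE M21, and capitals mark the CArG matches.
Myl9: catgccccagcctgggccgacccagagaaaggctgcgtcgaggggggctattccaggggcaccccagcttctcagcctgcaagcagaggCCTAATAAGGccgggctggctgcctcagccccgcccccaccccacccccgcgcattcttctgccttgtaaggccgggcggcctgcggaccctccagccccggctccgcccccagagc
Vcl: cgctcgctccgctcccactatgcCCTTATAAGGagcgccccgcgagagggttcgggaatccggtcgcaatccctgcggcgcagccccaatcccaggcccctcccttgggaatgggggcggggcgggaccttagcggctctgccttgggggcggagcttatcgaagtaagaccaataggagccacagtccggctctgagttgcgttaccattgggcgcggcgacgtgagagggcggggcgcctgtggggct
Cnn2: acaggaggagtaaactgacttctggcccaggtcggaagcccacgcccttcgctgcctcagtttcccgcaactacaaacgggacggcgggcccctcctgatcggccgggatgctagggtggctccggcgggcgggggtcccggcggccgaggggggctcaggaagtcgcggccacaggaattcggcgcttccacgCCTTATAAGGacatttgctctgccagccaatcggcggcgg
Srf: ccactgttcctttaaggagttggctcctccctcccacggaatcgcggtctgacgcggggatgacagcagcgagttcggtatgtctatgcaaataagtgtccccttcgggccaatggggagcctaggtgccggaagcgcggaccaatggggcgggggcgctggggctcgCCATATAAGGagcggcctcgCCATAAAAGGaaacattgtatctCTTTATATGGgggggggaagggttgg
Tpm1: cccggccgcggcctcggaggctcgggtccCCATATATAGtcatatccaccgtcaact
Palld: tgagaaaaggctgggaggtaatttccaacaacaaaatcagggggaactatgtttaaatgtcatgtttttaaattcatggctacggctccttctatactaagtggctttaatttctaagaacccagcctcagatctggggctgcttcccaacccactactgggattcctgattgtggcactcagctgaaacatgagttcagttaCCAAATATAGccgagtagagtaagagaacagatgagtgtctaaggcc
Lmod1: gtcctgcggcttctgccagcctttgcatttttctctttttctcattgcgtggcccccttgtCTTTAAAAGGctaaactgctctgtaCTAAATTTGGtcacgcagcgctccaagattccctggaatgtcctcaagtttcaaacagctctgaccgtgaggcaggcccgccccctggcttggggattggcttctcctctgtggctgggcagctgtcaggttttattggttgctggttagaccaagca
Tpm3: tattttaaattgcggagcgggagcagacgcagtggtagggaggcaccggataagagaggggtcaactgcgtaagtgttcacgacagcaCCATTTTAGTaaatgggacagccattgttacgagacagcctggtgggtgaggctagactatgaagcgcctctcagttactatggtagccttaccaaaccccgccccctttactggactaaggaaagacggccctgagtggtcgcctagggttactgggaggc
The stretches are chr2:156775214-156775419 (plus strand) for Myl9, chr14:20929148-20929397 (plus strand) for Vcl, chr10:79988350-79988583 (plus strand) for Cnn2, chr17:46556176-46556412 (minus strand) for Srf, chr9:67049407-67049463 (minus strand) for Tpm1, chr8:61902708-61902957 (minus strand) for Palld, chr1:135324563-135324806 (plus strand) for Lmod1 and chr3:90079271-90079520 (plus strand) for Tpm3. The exact boxes began 161 bases upstream of the start in Myl9, 227 in Vcl and 56 in Cnn2, and Srf had exact boxes at 82 and 62 bases and a match with 1 mismatch at 39 bases. The matches of Tpm1, Palld, Lmod1 and Tpm3 each carry 1 mismatch, and a second match of Tpm1 lies in bases left out here. The stretch of Tpm3 and the window with the match of Flna lie inside their genes in GENCODE M21. They precede an internal start and not the outermost start of the gene. Among the members with a window, 2 of the 10 that rose, 3 of the 19 that did not pass and 0 of the 2 that fell had an exact box. With 1 mismatch allowed, these were 5 of 10, 4 of 19 and 1 of 2. A match is a description of letters and not evidence of binding, and genes with several starts have windows at more than 1 of them.

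Before the results, the libraries differed in ways that touch these genes. WT replicates 2 and 3 stood apart from each other with the GC content of the transcripts. Across genes, each library's deviation from the mean of all libraries of both groups was rank correlated with GC. The correlation was 0.33 in WT replicate 2 and -0.25 in WT replicate 3. The mtDNA-encoded genes took 8.60% to 12.5% of the TPM in WT and 13.9% to 15.3% in MU. Of the fibroblast markers, 8 of 8 were tested, with summed levels of 8532 to 9815 TPM in WT and 11102 to 11608 TPM in MU. Of these 8, 4 rose, where 7.12% of all tested genes rose and 11.6% fell, called as described below. The smooth muscle and pericyte markers outside the members summed to 90.8 to 103 TPM in WT and 104 to 114 TPM in MU (1 of 5 tested rose and 2 fell), with Des below 1 TPM in each library. The skeletal and cardiac markers summed to 13.8 to 16.5 against 19.8 to 22.1 TPM, with 17 of 22 below 1 TPM in each library and 7 at 0. Epithelial markers summed to at most 2.31 TPM, leukocyte and endothelial markers to at most 6.48 TPM and adipocyte markers to at most 0.47 TPM in any library. Of the 2 leukocyte and endothelial markers tested, Cdh5, an endothelial cadherin, was at 1.33, 2.82 and 1.32 TPM in WT and 0.092, 0.11 and 0.11 TPM in MU and passed the filter described below only through the WT libraries. It was called lower in limma (adjusted p = 0.0186), and not when an MU library was left out (0.0626 to 0.0653). As it met the filter only in the group where it was high, this call is a description. The part of these markers in the results was not tested.

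More of the contractile genes rose than fell in MU. Levels are given in TPM (a level corrected for transcript length and scaled to the same total in each library), and differences are MU minus WT on the log2(TPM + 1) scale, fitted with limma over the 14209 genes with at least 1 TPM in at least 3 of the 6 libraries. Each SE rests on 3 WT and 3 MU libraries. A gene was said to rise or fall where the adjusted p (Benjamini-Hochberg over those genes) was under 0.05. Of the 36 members, 32 were tested, 31 of them at 1 TPM or more in each library. The exception, Myl4, met the filter through the 3 WT libraries by themselves, and MU replicate 2 was also above 1 TPM. Of these 32, 11 rose (34.4%, against 7.12% of all tested genes), 2 fell (6.25%, against 11.6%) and 19 did not pass. In either direction 18.8% of all tested genes were called. These shares over all tested genes are also the background for the counts of each group and list. The median difference of the 32 was 0.42 and 25 were positive, while the median of all tested genes was -0.05 and 44.4% were positive. In 20 of the 32, each MU library lay above each WT library, which was so for 16.1% of all tested genes, and in 3 each MU library lay below, against 23.0%.

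Among the 2667 calls over all genes 37.9% were rises, and this share was 48.8% after quantile normalization, 48.3% when libraries were scaled by the median of ratios and 48.5% when mtDNA-encoded genes were left out before rescaling. Under those 3 scalings 16, 11 and 13 members rose and 2 fell, while 1262, 1278 and 1159 of all tested genes rose, against 1012 in the main fit. Summed over the 36 genes, TPM was 5152, 5489 and 4740 in WT and 6164, 6170 and 6392 in MU, and the ranges did not overlap. The number that rose was 5 to 16 when each library was left out in turn. It was 6, 5 and 7 without MU replicate 1, 2 or 3, which leaves 2 libraries in that group. Without WT replicate 1, 2 or 3 it was 8, 16 and 10. Over all tested genes, 453, 427 and 465 rose without MU replicate 1, 2 or 3. Without WT replicate 1, 2 or 3 these were 629, 1153 and 985. In the authors' deposited table, 18 members were higher and 2 lower at their adjusted p under 0.05, of 35 with a value. Of 17009 genes there, 21.1% passed in either direction. All 11 members that rose here and both that fell were called in the same direction there. Also higher there were Cnn2, Tpm2, Myh9, Flna, Pdlim7 and Tns1, which did not pass here, and Lmod1, which was not tested here.

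**Figure D1:**
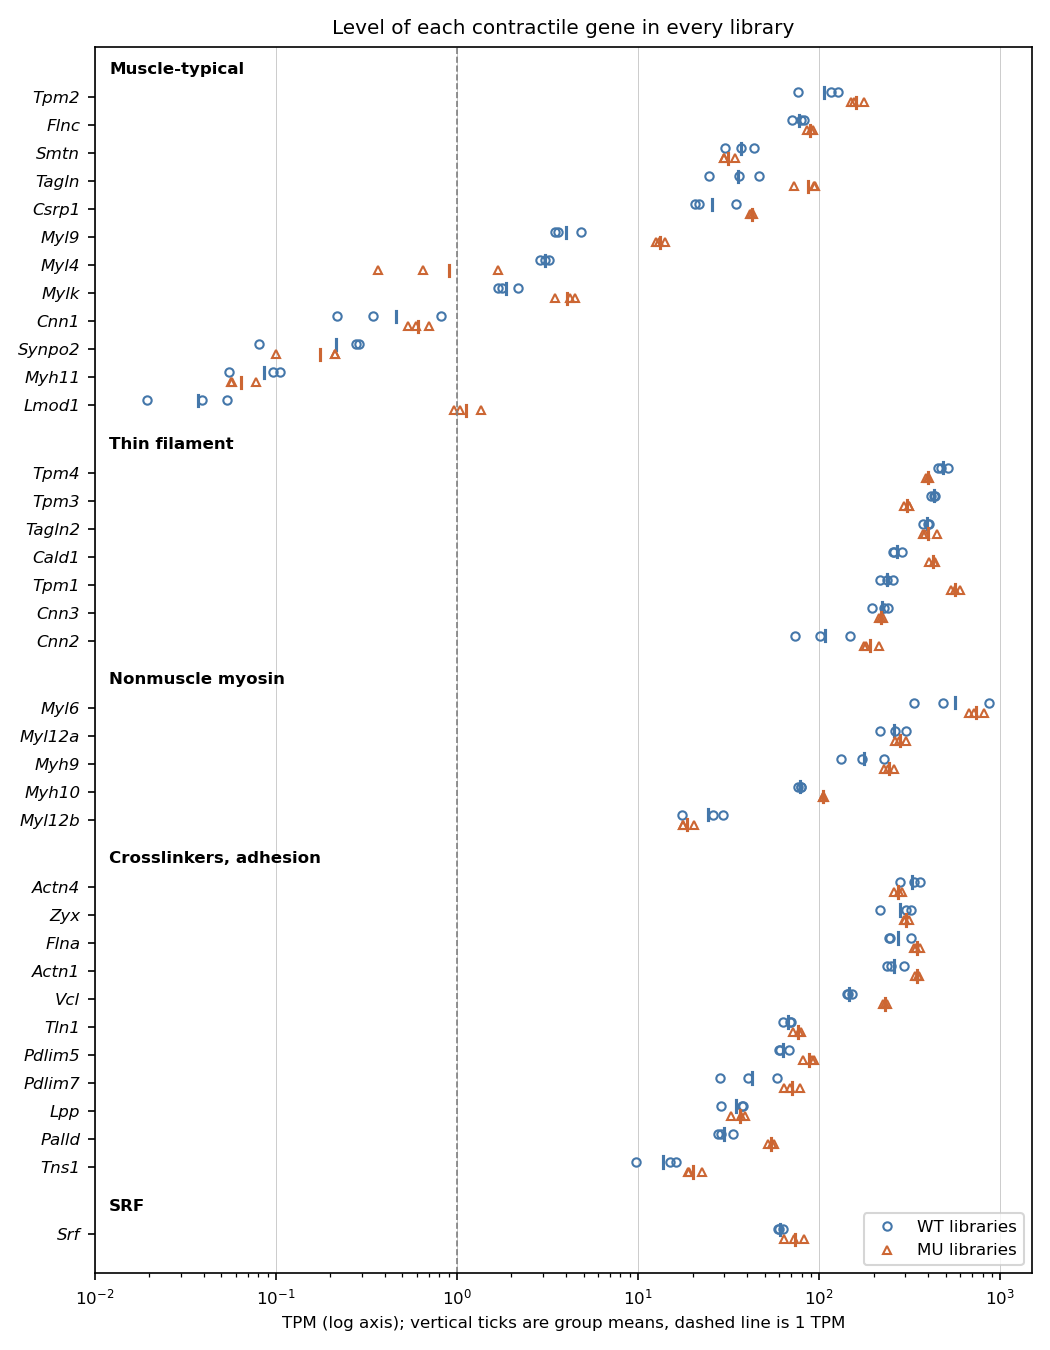
TPM of each of the 36 genes in the 3 WT and 3 MU libraries, grouped by role, on a log axis. Points are libraries and ticks are group means. The MU points of Tpm1, Myl9, Vcl, Cald1 and Palld lie clear of the WT points, while those of Cnn3, Lpp and Tagln2 are mixed with them.

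**Figure D2:**
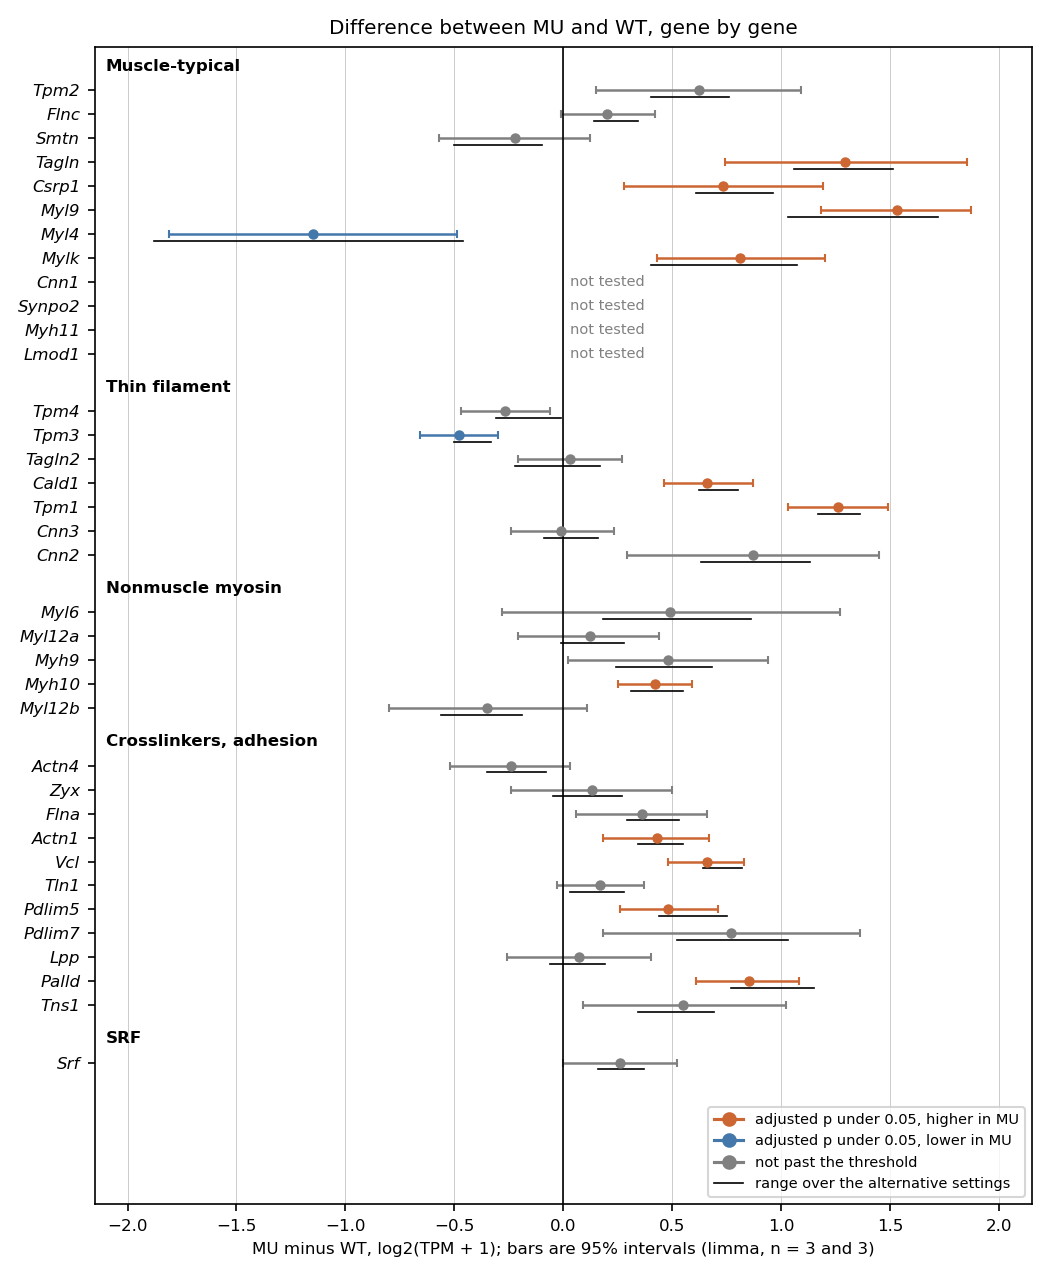
Difference between MU and WT on the log2(TPM + 1) scale for each gene, with its 95% interval from limma (3 libraries in each group) and, as a thin line, the range over the alternative settings. Of the 32 tested genes, 11 lie to the right and 2 to the left at an adjusted p under 0.05.

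Genes typical of smooth muscle or of muscle numbered 12, of which 8 were tested: 4 rose, 1 fell, 3 did not pass, and the median difference was 0.68. The 4 that rose were Tagln, Myl9, Mylk and Csrp1, and the 1 that fell was Myl4. The smooth muscle myosin heavy chain Myh11, the calponin Cnn1 and the Z-disc protein Synpo2 were below 1 TPM in each library. Other smooth muscle genes of this group differed from them. Smtn was at 29.7 to 43.7 TPM over the 6 libraries, and Lmod1 at 0.019 to 0.054 TPM in WT and 0.96 to 1.36 TPM in MU.

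Tagln, or SM22, an actin-binding protein used as an early marker of smooth muscle and myofibroblasts, (chr9:45929619-45936058, minus strand) was at 46.7, 35.96 and 24.6 TPM in WT and 94.7, 93.3 and 72.6 TPM in MU. All MU libraries were above all WT libraries, with WT replicate 3 lowest. The difference was 1.29 (SE 0.23, adjusted p = 0.013), and the mean TPM was 2.43-fold higher in MU. Without MU replicate 1 or 2 the adjusted p was 0.0552 or 0.0569. Tagln overlaps Pcsk7 and Gm48529 on the other strand.

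Myl9, the myosin regulatory light chain of smooth muscle and of stress fibres, (chr2:156775420-156781658, plus strand) was at 3.60, 4.86 and 3.48 TPM in WT and 14.1, 13.0 and 12.6 TPM in MU. The MU libraries were close to each other and far above WT. The difference, 1.53 (SE 0.14, adjusted p = 0.00149), was the largest of the 32 tested members, and the mean was 3.33-fold higher. With a pseudocount of 5 in place of 1 it was 1.03, and it passed in all 18 alternative settings. Myl9 holds an exact CArG box in the stretch printed above.

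Mylk, the myosin light chain kinase that phosphorylates this light chain, (chr16:34745210-35002420, plus strand) was at 1.69, 2.17 and 1.77 TPM in WT and 3.47, 4.23 and 4.47 TPM in MU. Its groups did not overlap, and the difference was 0.81 (SE 0.16, adjusted p = 0.0178). The adjusted p was 0.0786, 0.075 and 0.0589 without MU replicate 2, MU replicate 3 or WT replicate 1, and 0.0732 with no filter on low values. With a TPM of at least 5 required, it was not tested. Its difference was 1.07 with a pseudocount of 0.1 and 0.40 with a pseudocount of 5.

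Csrp1, a LIM protein of smooth muscle that binds zyxin and alpha-actinin, (chr1:135720061-135752232, plus strand) was at 21.8, 34.7 and 20.8 TPM in WT and 41.8, 42.0 and 43.3 TPM in MU. WT replicate 2 was well above the other WT libraries and below all MU libraries. The difference was 0.73 (SE 0.19, adjusted p = 0.0414). The adjusted p ranged from 0.0827 to 0.126 when WT replicate 1, WT replicate 3 or an MU library was left out, was 0.00233 without WT replicate 2, and was 0.101 with no filter and 0.0567 in limma without a trend.

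Myl4, an alkali light chain of embryonic and atrial muscle, (chr11:104550663-104595753, plus strand) was at 2.89, 3.06 and 3.22 TPM in WT and 0.37, 1.69 and 0.65 TPM in MU. It was low throughout, and MU replicate 2 was nearest to WT. The WT libraries, where it was higher, met the filter by themselves. The difference was -1.15 (SE 0.28, adjusted p = 0.0315). Without MU replicate 1 or 3, or WT replicate 1, 2 or 3, the adjusted p was 0.0908, 0.103, 0.087, 0.0597 and 0.0703. It was 0.0987 with no filter and 0.0516 relative to its neighbours. Relative to neighbours means after subtracting the median of neighbouring genes less the median of all tested genes (-0.05). The difference of Myl4 was -1.88 with a pseudocount of 0.1 and -0.46 with a pseudocount of 5.

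The remaining tested genes of this group did not pass. Tpm2, the beta tropomyosin of smooth and skeletal muscle, was at 116, 128 and 76.1 TPM in WT and 156, 149.7 and 177 TPM in MU, with a difference of 0.62 (SE 0.20, adjusted p = 0.0744). The MU libraries were above WT, and WT replicate 3 was the lowest. Its adjusted p was 0.0383 without WT replicate 2, 0.0288 after correction for GC and length, 0.0429 after quantile normalization and 0.0499 when mtDNA-encoded genes were left out before rescaling. Without WT replicate 3 the difference was 0.40 (adjusted p = 0.0514), and relative to its neighbours 0.46 (adjusted p = 0.167). Flnc, the muscle filamin, differed by 0.20 (SE 0.09, adjusted p = 0.167), and Smtn, or smoothelin, by -0.22 (SE 0.15, adjusted p = 0.336). Lmod1, a leiomodin that nucleates actin filaments in smooth muscle, was at 0.039, 0.054 and 0.019 TPM in WT and 1.36, 0.96 and 1.04 TPM in MU and was kept out by the filter. The groups were far apart. In the fit with no filter its difference was 1.03 with an adjusted p of 0.00938, a size bound by the pseudocount at so low a level. Cnn1 was at 0.82, 0.22 and 0.34 TPM in WT and 0.70, 0.59 and 0.54 TPM in MU, and these overlapped. Synpo2 reached at most 0.29 TPM and Myh11 at most 0.11 TPM in any library.

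Thin filament proteins of nonmuscle cells, or with forms of both kinds, numbered 7: Tpm1 and Cald1 rose, Tpm3 fell, 4 did not pass, and the median difference was 0.03. The tropomyosin genes moved in different directions. Tropomyosin lies along the actin filament and sets which motors and severing proteins can reach it, and its 4 genes each give several spliced forms that gene-level values do not separate.

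Tpm1, whose long forms are typical of stress fibres and muscle, (chr9:67022590-67049406, minus strand) was at 217, 237 and 255 TPM in WT and 539, 560.4 and 597 TPM in MU. The lowest MU library was far above the highest WT library. The difference was 1.26 (SE 0.10, adjusted p = 0.000712), and the mean was 2.4-fold higher. It rose in all 18 alternative settings, where it ranged from 1.17 to 1.36.

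Tpm3 (chr3:90072649-90100902, plus strand) was at 438, 432 and 417 TPM in WT and 314, 296 and 312 TPM in MU, with no overlap. The difference was -0.48 (SE 0.08, adjusted p = 0.0087). Without MU replicate 2 the adjusted p was 0.0626. The genes around it on chromosome 3 had a median difference of -0.21. After subtracting this median less that of all tested genes (-0.05), the difference of Tpm3 was -0.33 (adjusted p = 0.0365). Of its 50-base stretches, 23.2% also occur in other genes, mainly the copy Tpm3-rs7, so reads could be split between them. Tpm4 was at 516, 456 and 473 TPM in WT and 405, 402 and 391 TPM in MU, all MU libraries below all WT libraries, with a difference of -0.27 (SE 0.09, adjusted p = 0.0744) that did not pass. Its neighbours on chromosome 8 had a median of -0.31, and relative to them, reckoned in the same way, the difference of Tpm4 was -0.01. After quantile normalization it was -0.16 (adjusted p = 0.224). It fell at an adjusted p of 0.0419 after correction for GC and length and of 0.0313 without WT replicate 2.

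Per length, the shares of the tropomyosin genes differed between the groups. Tpm1 made up 16.8%, 18.9% and 20.9% of the family TPM in WT and 38.1%, 39.8% and 40.4% in MU. Tpm3 was 34.2% ± 0.24 (SD, n = 3) in WT and 21.5% ± 0.65 (n = 3) in MU, and Tpm4 was 38.4% ± 1.9 in WT and 27.9% ± 1.3 in MU. Tpm2 was 8.48% ± 2.0 in WT and 11.2% ± 0.69 in MU. Tpm4 had the largest share in each WT library and Tpm1 in each MU library. The family sum was 1221 to 1286 TPM in WT and 1408 to 1476 TPM in MU, so the higher level of Tpm1 in MU exceeded the lower levels of Tpm3 and Tpm4 combined. These shares are descriptions without a test of their own.

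**Figure D3:**
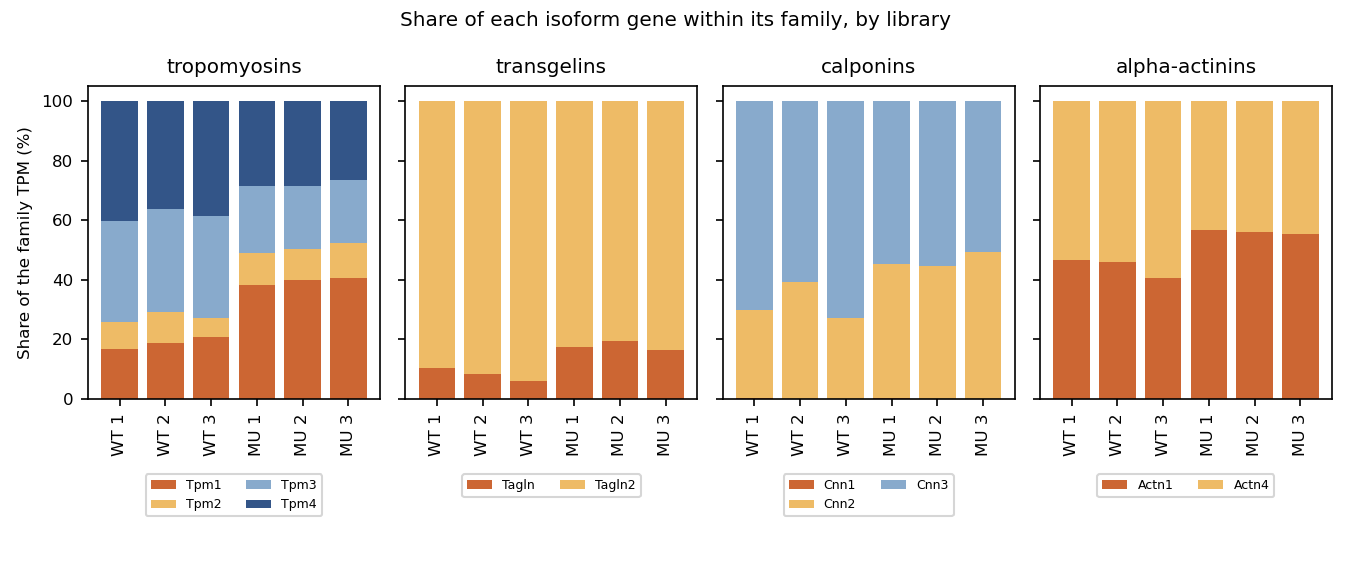
Share of each gene in the summed TPM of its family, as a percent, in each of the 6 libraries, for tropomyosins, transgelins, calponins and alpha-actinins. Bars of a library add up to 100%. Tpm1 takes 16.8% to 20.9% of tropomyosin TPM in WT and 38.1% to 40.4% in MU.

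Cald1, or caldesmon, which binds tropomyosin-coated filaments and restrains myosin, (chr6:34598500-34775473, plus strand) was at 261, 288 and 256 TPM in WT and 433, 438 and 406 TPM in MU. The groups were well separated, with a difference of 0.66 (SE 0.09, adjusted p = 0.0043), and it rose in all 18 alternative settings. Cnn2, the calponin typical of fibroblasts, was at 101, 148 and 73.5 TPM in WT and 177, 181 and 214 TPM in MU. All MU libraries were above WT, but the WT libraries differed from each other by more than those of most members. The difference was 0.87 (SE 0.24, adjusted p = 0.0515). It was called in 5 of 18 settings, among them the correction for GC and length (adjusted p = 0.0273) and the fit without WT replicate 2 (0.0091). Cnn3, the acidic calponin, was at 239, 229.6 and 197 TPM in WT and 213, 227 and 221 TPM in MU, with a difference of -0.01 (SE 0.10, adjusted p = 0.978), and its groups overlapped.

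Tagln2, the form of transgelin in nonmuscle cells, was at 405, 401 and 373 TPM in WT and 450.3, 383 and 374 TPM in MU. These overlapped, with a difference of 0.03 (SE 0.10, adjusted p = 0.872). Tagln made up 8.25% ± 2.1 (SD, n = 3) of the transgelin TPM in WT and 17.8% ± 1.7 (n = 3) in MU, so Tagln2 was the more abundant in each library. Cnn2 made up 27.2% to 39.2% of the calponin TPM in WT and 44.4% to 49.2% in MU, the rest being nearly all Cnn3.

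Nonmuscle myosin numbered 5 tested genes, of which Myh10 rose and 4 did not pass, with a median difference of 0.42. Nonmuscle myosin II is the motor of stress fibres and is made of heavy chains, essential light chains and regulatory light chains. Myh10, the IIB heavy chain, (chr11:68691559-68816632, plus strand) was at 76.8, 79.1 and 79.5 TPM in WT and 105, 105 and 106 TPM in MU. The spread within each group was small and the groups did not overlap. The difference was 0.42 (SE 0.07, adjusted p = 0.00965), and the adjusted p was 0.0562, 0.0593 and 0.0531 without MU replicate 1, 2 or 3. Myh9, the IIA heavy chain, was at 173, 228 and 133 TPM in WT and 229, 241 and 261 TPM in MU. All MU libraries were above WT, with WT replicate 2 close to them, and the difference of 0.48 (SE 0.19, adjusted p = 0.133) did not pass. It was 0.68 (adjusted p = 0.0196) with WT replicate 2 left out, 0.29 (adjusted p = 0.197) with WT replicate 3 left out and 0.24 (adjusted p = 0.448) relative to its neighbours. The share of Myh10 in the heavy chain TPM was 31.3% ± 5.9 (SD, n = 3) in WT and 30.2% ± 1.3 (n = 3) in MU, a difference within the spread of WT.

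Myl6, the essential light chain, was at 482, 867 and 336 TPM in WT and 673, 713 and 816 TPM in MU. WT replicate 2 was higher than any MU library and WT replicate 3 was the lowest. The difference was 0.49 (SE 0.32, adjusted p = 0.341), and it was 0.86 (adjusted p = 0.0224) with WT replicate 2 left out, 0.18 (adjusted p = 0.667) with WT replicate 3 left out and 0.24 (adjusted p = 0.673) relative to its neighbours. The regulatory light chains Myl12a and Myl12b lie side by side on chromosome 17. Myl12a was at 262, 216 and 301 TPM in WT and 302, 264 and 275 TPM in MU, with a difference of 0.12 (SE 0.14, adjusted p = 0.593). Myl12b was at 25.8, 29.7 and 17.6 TPM in WT and 20.3, 17.6 and 17.7 TPM in MU, with a difference of -0.35 (SE 0.19, adjusted p = 0.262), and it was -0.56 (adjusted p = 0.0298) without WT replicate 3 and -0.19 (adjusted p = 0.476) without WT replicate 2. In both genes the groups overlapped.

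The values of Myl12a and Myl12b are uncertain. Gm49909, a gene model on the same strand (chr17:70974119-71002208, minus strand), overlaps both Myl12a (chr17:70993656-71002878) and Myl12b (chr17:70973133-70990890), and GENCODE M21 calls it Myl12b as well. Gm49909, looked up after the values of the locus were seen, was at 301, 615 and 52.6 TPM in WT and 173, 209 and 215 TPM in MU, a difference of -0.11 (SE 0.82, adjusted p = 0.942). The 3 genes together summed to 589, 861 and 372 TPM in WT and 495, 491 and 507 TPM in MU, so MU lay inside the range of WT. Of their 50-base stretches, 16.4% of Myl12a and 25.4% of Myl12b occur in other genes. Myl9, the third regulatory light chain and the only one of the 3 to rise, shares none. It made up 1.42% ± 0.46 (SD, n = 3) of the TPM of Myl9, Myl12a and Myl12b in WT and 4.25% ± 0.15 (n = 3) in MU. That sum leaves out Gm49909, and counting it would lower both shares.

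Crosslinkers and proteins of adhesions or of Z-disc-like bodies numbered 11, all tested: Vcl, Palld, Actn1 and Pdlim5 rose, 7 did not pass and none fell, with a median difference of 0.43. In 8 of the 11, each MU library was above each WT library, which was so for 16.1% of all tested genes.

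Vcl, or vinculin, which couples talin to actin at adhesions, (chr14:20929398-21033676, plus strand) was at 152, 142 and 145 TPM in WT and 231, 236 and 227 TPM in MU. The gap between the groups was several times the spread within either. The difference was 0.66 (SE 0.07, adjusted p = 0.00264). Its neighbours on chromosome 14 had a median of -0.22, and relative to them the difference of Vcl was 0.82 (adjusted p = 0.00128). Vcl overlaps Ap3m1 on the other strand and carries an exact CArG box, printed above. Palld, or palladin, a scaffold of stress fibre dense bodies, (chr8:61511433-61902690, minus strand) was at 33.4, 28.6 and 27.8 TPM in WT and 55.1, 52.2 and 56.2 TPM in MU. The groups were well apart, with WT replicate 1 the highest of WT. The difference was 0.85 (SE 0.10, adjusted p = 0.003), while the genes around it on chromosome 8 had a median of -0.36, and relative to them it was 1.15 (adjusted p = 0.00116). Both genes rose in all 18 alternative settings.

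Actn1, the alpha-actinin of stress fibres and focal adhesions, (chr12:80167547-80260371, minus strand) was at 293, 236 and 249 TPM in WT and 338, 351 and 355 TPM in MU. The groups did not overlap. The difference was 0.43 (SE 0.10, adjusted p = 0.0322). The adjusted p was 0.0583 to 0.123 when WT replicate 3 or an MU library was left out, 0.0713 relative to its neighbours, 0.0693 with no filter and 0.0524 in limma without a trend. Actn4, its close relative, was at 335, 279 and 363 TPM in WT and 259, 275 and 286 TPM in MU, with WT replicate 2 inside the range of MU. The difference was -0.24 (SE 0.12, adjusted p = 0.197), and without WT replicate 2 the adjusted p was 0.0273. Actn1 made up 44.4% ± 3.2 (SD, n = 3) of the alpha-actinin TPM in WT and 56.0% ± 0.59 (n = 3) in MU. Actn4 was thus the more abundant form in each WT library and Actn1 in each MU library. Actn1 overlaps Gm47766 and Gm47767, and Actn4 overlaps Capn12, on the other strand.

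The PDZ and LIM domain proteins Pdlim5 and Pdlim7 sit on alpha-actinin. Pdlim5 (chr3:142239590-142395696, minus strand) was at 60.1, 60.6 and 68.3 TPM in WT and 93.4, 91.0 and 81.1 TPM in MU, without overlap, a difference of 0.48 (SE 0.10, adjusted p = 0.0172). Without MU replicate 1, MU replicate 2 or WT replicate 1 the adjusted p was 0.0793, 0.0818 and 0.0623. Its neighbours on chromosome 3 had a median of -0.32, and relative to them the difference was 0.75 (adjusted p = 0.00446). Pdlim7 was at 40.8, 58.6 and 28.6 TPM in WT and 64.1, 69.2 and 79.0 TPM in MU. All MU libraries were above WT, but WT replicate 2 was above WT replicate 3 by 1.01 on the log2(TPM + 1) scale. The difference was 0.77 (SE 0.25, adjusted p = 0.0757). It was called after correction for GC and length (adjusted p = 0.0275) and without WT replicate 2 (0.0136).

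The other 5 genes of this group did not pass. Flna, the main filamin of fibroblasts, was at 248, 245 and 323 TPM in WT and 335, 342 and 363 TPM in MU. All MU libraries were above WT, with WT replicate 3 close to them. The difference was 0.36 (SE 0.13, adjusted p = 0.098), and without WT replicate 3 the adjusted p was 0.0137. Its share of the filamin TPM was 77.5% ± 4.0 (SD, n = 3) in WT and 79.5% ± 0.34 (n = 3) in MU. Tns1, a tensin of fibrillar adhesions, was at 16.2, 15.1 and 9.72 TPM in WT and 22.5, 19.0 and 19.1 TPM in MU, above WT in each MU library, with a difference of 0.55 (SE 0.20, adjusted p = 0.098), or 0.34 (adjusted p = 0.106) without WT replicate 3. Tln1, or talin, differed by 0.17 (SE 0.08, adjusted p = 0.204), Zyx, the tension-sensing LIM protein zyxin, by 0.13 (SE 0.15, adjusted p = 0.617), and Lpp, its relative, by 0.07 (SE 0.14, adjusted p = 0.764). The MU libraries were above WT in Tln1 and overlapped with WT in Zyx and Lpp. With quantile normalization the adjusted p was 0.0211 for Flna, 0.0485 for Tln1 and 0.0479 for Flnc.

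The spread of the WT libraries moved with GC content. The 32 tested members had a median GC of 53.4%, against 49.0% for the 14189 tested genes with a value, and 26 of the 32 were above the latter. Across the 32 genes, the rank correlation of GC with the difference between WT replicate 2 and WT replicate 3 was 0.44, and it was 0.43 across all tested genes, where genes share both libraries. The gap was 1.37 on the log2(TPM + 1) scale for Myl6, 1.01 for Pdlim7, 0.78 for Myh9 and 0.74 for Tpm2, all higher in WT replicate 2, and Cnn2 had a gap close to that of Pdlim7. None of these 5 genes passed. Of the 11 genes that rose, Csrp1 (0.71) and Tagln (0.53) had the widest such gaps. After correction for GC and length 14 members rose and 3 fell, the added ones being Cnn2, Tpm2 and Pdlim7, and Tpm4. Calls over all genes also grew: 1570 of 14189 rose and 1786 fell, against 1012 and 1655 of 14209 without the correction.

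**Figure D4:**
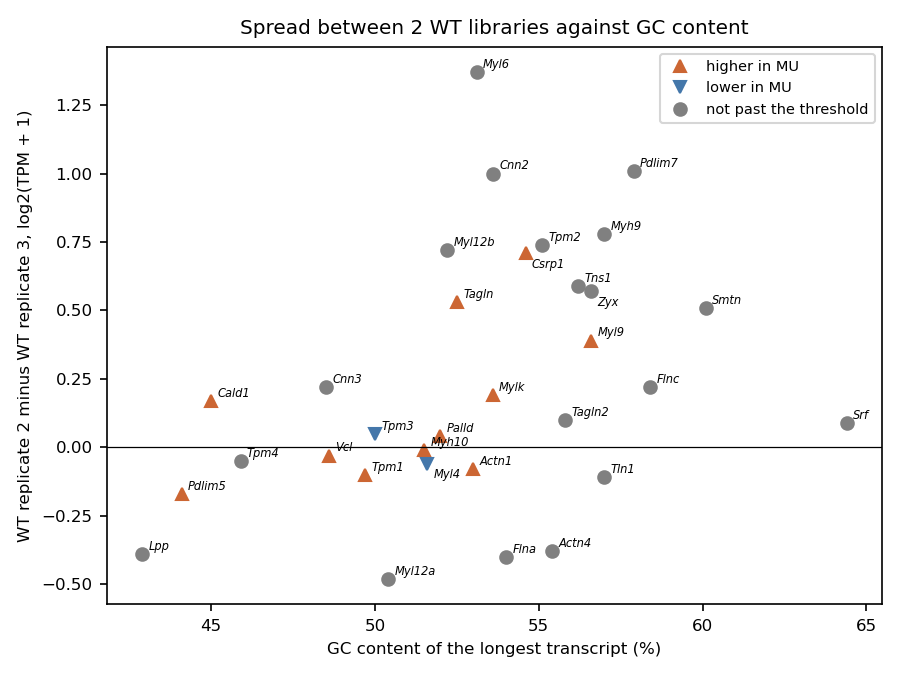
Difference between WT replicate 2 and WT replicate 3 on the log2(TPM + 1) scale against GC content of the longest transcript, for the 32 tested genes, coloured by call. The rank correlation is 0.44, and 20 of the 32 genes were higher in WT replicate 2.

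Srf itself did not pass. It was at 60.4, 63.1 and 59.1 TPM in WT and 64.1, 72.8 and 82.8 TPM in MU. Each MU library was above each WT library, but the lowest MU value was close to the highest WT value. The difference was 0.26 (SE 0.11, adjusted p = 0.156), and the adjusted p was 0.0566 to 0.385 over 18 alternative settings. Without MU replicate 3 the difference was 0.16. Of its 6 cofactors, 5 were tested and none passed, and 0 had an unadjusted p under 0.05 in limma. Mrtfa, or MRTF-A, was at 38.3, 35.8 and 29.6 TPM in WT and 40.0, 39.6 and 43.4 TPM in MU, a difference of 0.25 (SE 0.12, adjusted p = 0.19). Mrtfb differed by -0.09 (SE 0.14, adjusted p = 0.696), and the ternary complex factors Elk1, Elk3 and Elk4 by -0.23, -0.17 and -0.16, with adjusted p of 0.339, 0.185 and 0.43. Myocd, or myocardin, which drives smooth muscle genes, reached at most 0.13 TPM. Transcript levels do not report where MRTF sits in the cell.

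Other contractile or adhesion genes known as MRTF and SRF targets numbered 34, of which 24 were tested. Of the 24, 11 rose and 3 fell, with a median difference of 0.49, against 7.12% and 11.6% of all tested genes. Ldb3, 1 of the 11, passed the filter only through the MU libraries, so its call is a description. Ablim1, an actin-binding LIM protein, was at 2.12, 1.65 and 1.93 TPM in WT and 15.0, 14.4 and 14.9 TPM in MU, a difference of 2.45 (SE 0.12, adjusted p = 0.000182). Pdlim1, a relative of Pdlim5, was at 49.7, 51.9 and 47.4 TPM in WT and 121, 114 and 128 TPM in MU, a difference of 1.27 (SE 0.08, adjusted p = 0.000465). Both were far apart between groups and rose in all 18 settings. Tns3, a tensin, was at 29.7, 37.6 and 24.8 TPM in WT and 14.9, 19.0 and 15.9 TPM in MU, and Pxn, the adhesion scaffold paxillin, at 35.1, 37.9 and 26.2 and 18.4, 18.2 and 22.7 TPM. These 2 genes fell by 0.84 and 0.70, with adjusted p of 0.0188 and 0.0287. Their highest adjusted p with 1 library left out was 0.0738 for Tns3, which lost its call without MU replicate 1, MU replicate 3 or WT replicate 1, and 0.104 for Pxn, which kept it only without WT replicate 3 among the 6. Pxn also lost its call with no filter (adjusted p = 0.0699) and relative to its neighbours (0.169). Over this list 7, 7 and 8 genes rose without MU replicate 1, 2 or 3, and 10, 11 and 10 without WT replicate 1, 2 or 3, while 0 to 2 fell.

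The immediate early genes, which SRF reaches through the ternary complex factors, numbered 10, all tested: 1 rose and 1 fell, with a median of -0.20. The shares over all tested genes were 7.12% and 11.6%. Egr2 was at 1.09, 0.93 and 1.01 TPM in WT and 2.24, 2.50 and 2.77 TPM in MU (difference 0.80, SE 0.17, adjusted p = 0.0207), and Egr3 at 9.78, 8.51 and 8.78 TPM in WT and 6.03, 5.498 and 5.05 TPM in MU (difference -0.62, SE 0.12, adjusted p = 0.0167). The adjusted p was as high as 0.0842 for Egr2 with 1 library left out (lost when an MU library or WT replicate 1 was left out) and 0.071 for Egr3 (lost without MU replicate 2, MU replicate 3 or WT replicate 1). With no filter that of Egr2 was 0.0781.

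Genes of actin monomer binding and filament turnover numbered 26, with 20 tested: 3 rose, 4 fell and the median was -0.11. Gsn, the severing protein gelsolin, was at 187, 229 and 239.7 TPM in WT and 384, 371 and 381 TPM in MU (difference 0.80, SE 0.11, adjusted p = 0.00539), and destrin, Dstn, at 232, 171 and 225 and 404, 413 and 357 TPM (difference 0.91, SE 0.14, adjusted p = 0.0073). Pfn2, a profilin, was at 179.9, 155 and 188 TPM in WT and 101, 106 and 94.7 TPM in MU (difference -0.79, SE 0.10, adjusted p = 0.00413), and the monomer-binding thymosin Tmsb4x at 1104, 901 and 1208 and 629.8, 612 and 601 TPM (difference -0.79, SE 0.13, adjusted p = 0.00866). These 4 genes kept their calls with each library left out, with adjusted p of at most 0.0491, and Tmsb4x lost it relative to its neighbours (adjusted p = 0.0971). Over the list 2 to 3 genes rose and 2 to 5 fell with 1 library left out, the fewest when an MU library or WT replicate 1 was left out. Of the actins, Acta2 and Actg2, the smooth muscle forms, rose from means of 143 and 0.955 TPM to 977 and 82.4 TPM. Acta1 also rose, from 0.59, 0.67 and 0.71 TPM in WT to 2.65, 3.28 and 3.08 TPM in MU. Its difference was 1.27 (SE 0.17, adjusted p = 0.0048). As Acta1 passed the filter only through the MU libraries, its call is a description. Actb and Actg1 did not pass (-0.10 and 0.32).

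**Figure D5:**
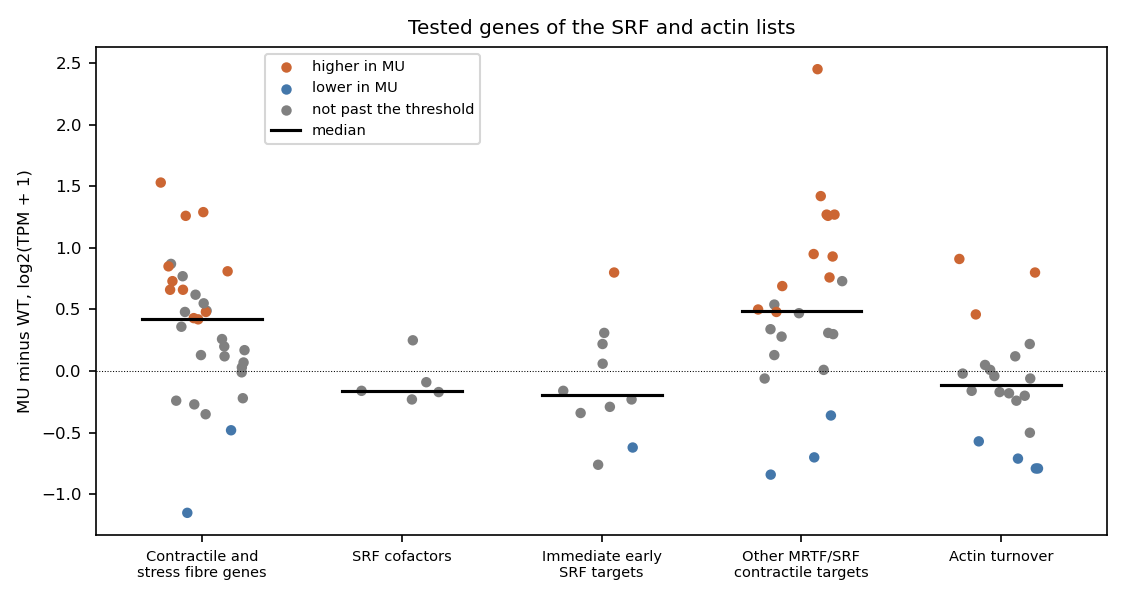
Differences between MU and WT on the log2(TPM + 1) scale for the 32 tested members and the tested genes of 4 related lists, 1 point per gene, coloured by call, with each median as a line. The median is 0.42 for the members, 0.49 for the other MRTF and SRF contractile targets, and between -0.11 and -0.20 for the 3 other lists.

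No source used here gives the strand setting of the authors' counting. A gene on the other strand overlaps 13 of the 36 members, and 5 of these were called (Tagln, Myl4, Mylk, Actn1 and Vcl), so reads of the overlapped stretches cannot be told apart for them. Fewer transcripts per cell and fewer cells making them cannot be told apart either in RNA from whole cultures.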

How the data were processed

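The authors deposited log2(TPM + 1) values per gene and library, per the file headers, so depth is unknown and no counting interval was computed. Returned to TPM, these deposited values were tested as log2(TPM + 1) with limma 3.58.1 in R 4.3.3 (intensity trend, two-sided, Benjamini-Hochberg over 14209 genes at 1 TPM or more in at least 3 libraries). A fold or difference on that scale understates changes of low genes. The authors also deposited a table of log2 fold changes and p-values. The submitters' processing notes list DESeq2 1.20.0, featureCounts 1.5.0-p3, HISAT2 2.05.0 and FastQC 0.11.4 with genome mm10, and no source used here gives their roles, strand setting or annotation. Positions, GC and length came from GENCODE M21 (GRCm38), matched by identifier for 55141 of 55401 genes, and sharing of 50-base stretches from its transcripts. The script was tested on simulated data.

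The members and lists were chosen with earlier results of these data known. All 36 members are named. From each related list the 2 higher and 2 lower genes with the smallest adjusted p are named, and all tested SRF cofactors and actins. The result of 1 related list is not reported here. Also tried were pseudocounts of 0.1 and 5, a replicate block, a minimum of 5 TPM, no filter, and limma robust or without trend. Other settings scaled by quantiles, by the median of ratios or with mtDNA-encoded genes left out. A loess correction for GC and length (span 0.3) was also made, and each library was left out. For values relative to neighbours, MU was lowered by the median of 20 neighbouring genes on each side less the median of all tested genes (-0.05).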

Additional observations from a re-analysis of the deposited data

How the results depend on the processing

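Over 18 settings no called member changed sign, Tpm1, Myl9, Cald1, Vcl and Palld kept their calls throughout, and 11 members that did not pass were called in at least 1 setting. The count of genes called was 2667, and 1071 to 3391 with 1 library left out. Of the members 11 rose and 2 fell, and with 1 library left out 5 to 16 rose and 1 to 3 fell. The number that fell was 1 with a minimum of 5 TPM, 1 with no filter and 1 relative to neighbouring genes. With a replicate block 1093 genes were called, 6 members rose and 0 fell. Tpm3, Myl4, Mylk, Myh10, Actn1, Pdlim5 and Csrp1 lost their calls under the block, as did Pxn (adjusted p = 0.092), Egr2 (0.0849), Egr3 (0.0651) and Cdh5 (0.058) outside the members, which left 0 immediate early genes called. Same-numbered deviations correlated at 0.05, 0.015 and -0.074, and not every library correlated best with its own number. With 3 libraries in each group this cannot decide if same-numbered libraries were paired, and the labels used here do not say. The isoform shares have no test. Leaving out each library moved the Tpm1 share difference only between 19.6 and 21.6 percentage points. The share difference of Myh10 was -1.08 points and 2.0 points without WT replicate 3. Depth is unknown, so the precision of low genes such as Lmod1, Myl4, Cnn1, Synpo2 and Myh11 cannot be given beyond the spread between libraries.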

Other observations

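Some muscle genes outside the members also differed, and the 4 named here were chosen after their values were seen. Hspb6, a small heat shock protein abundant in muscle, was at 16.03, 12.7 and 13.0 TPM in WT and 47.9, 37.8 and 38.2 TPM in MU, a difference of 1.5 (SE 0.14, adjusted p = 0.00142 in limma). Its groups did not overlap. Ldb3, a Z-disc protein, was at 0.071, 0.041 and 0.13 TPM in WT and 1.44, 1.51 and 1.83 TPM in MU. Ttn, the giant sarcomere protein titin, was at 0.046, 0.075 and 0.14 TPM in WT and 1.02, 1.44 and 1.42 TPM in MU. Both genes passed the filter of 1 TPM in 3 libraries only through the MU libraries, where they were high, so these levels are a description. In the opposite direction, Npnt, the matrix protein nephronectin, which is listed here with smooth muscle markers, was at 16.5, 15.9 and 17.96 TPM in WT and 1.47, 2.62 and 1.68 TPM in MU, a difference of -2.62 (SE 0.17, adjusted p = 0.00047). Cspg4, a pericyte marker, had a mean of 29.2 ± 1.7 TPM (SD, n = 3) in WT and 29.2 ± 1.0 TPM (n = 3) in MU.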
